A study of Saccharomyces cerevisiae with 2 samples.

Results

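Genes of the vesicle coats, Arf regulators, fusion factors and cargo receptors that work between the endoplasmic reticulum (ER) and the Golgi were compared between a yeast strain that lacks YDR374C and its wild type. The group holds 40 genes of 6256 on the array, chosen by name as known parts of this pathway, with earlier results of these data known. All 40 were found by the gene name given for a spot. They lie in 66 of the 10263 gene spots of an array, 26 of them in duplicate spots and 14 in a single spot. All 40 read well above background in both channels, in every spot and on both arrays.

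The groups are the Δydr374c strain, in which YDR374C is deleted, and the wild type, both in the Saccharomyces cerevisiae background BY4741, a haploid laboratory strain. Both grew in SD, a defined glucose medium, and were harvested in mid-exponential phase at an OD600 of 0.7. YDR374C, also named PHO92, encodes a YTH-domain protein, a reader of methylated RNA. There were 2 two-colour arrays, each with the Δydr374c RNA in Cy5 and the wild-type RNA in Cy3. The dyes were never exchanged, so a gene's own dye effect and its strain difference cannot be told apart. The labels give no number of cultures or clones, so the errors rest on the spread between 2 arrays, which may be technical. In limma each gene's error is drawn towards a value shared by all genes (prior of 13.2 degrees of freedom). An SE, with a median of 0.035 over all tested genes, is thus mostly not that gene's own spread between arrays.

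Proteins leave the ER in vesicles coated by COPII, whose assembly starts when the small GTPase Sar1 is loaded with GTP. COPI vesicles carry escaped ER proteins and receptors back, and their coat is recruited by the GTPase Arf, which exchange factors switch on and GTPase-activating proteins switch off. Tethers and SNARE proteins then bring each vesicle to its target membrane. Most coat subunits are encoded by essential genes in yeast, and this traffic feeds secretion, the cell wall and the vacuole.

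The median gene spot read between 2105 and 3105 in the red channel and between 1597 and 2371 in the green channel, against local background medians of 36 to 42. Over the 33 traffic genes tested, which share both arrays, array 1 and array 2 gave log2 ratios with r = 0.909 and rho = 0.845, against r = 0.958 and rho = 0.948 over all 5641 tested genes. The deleted gene was the check of the labels: YDR374C was lower by a log2 ratio of only -0.23 ± 0.03 (SE over 2 arrays, adjusted p = 2.74e-05 in limma), so most of its reading stayed. Its log2 ratios ranged over 4 spot readings from -0.39 to -0.04, and 1 of its spots was not well above background on either array. That spot gave -0.24 on array 1 and -0.39 on array 2, and both readings are part of the average. The spot well above background gave -0.24 on array 1 and only -0.04 on array 2. The position of its probe in the gene is not used here, so the Cy5 sample is called the RNA labelled as deletion, and each direction given rests on that label. The 6 MATa-specific marker genes expected in BY4741 summed to red intensities of 38608 and 53426, and green ones of 30124 and 41988. These sums, like the MATalpha sums below, are of mean signals before background correction and normalisation. After normalisation the log2 ratios of the 6 genes went both ways, from -0.62 (STE6) to 0.34 (AGA2). The 4 MATalpha-specific genes summed to 2618 and 3325 in red and to 2219 and 2778 in green. Among them STE3 (-0.31, adjusted p = 1.49e-06 in limma) and MF(ALPHA)2 (-0.08, adjusted p = 0.0437) were called lower, while MF(ALPHA)1 and SAG1 did not pass. Of the genes deleted in BY4741, LEU2 and MET17 were not well above background. URA3 and HIS3, which is deleted in part, were well above it in both channels. HIS3 did not pass (-0.03), but URA3 was called higher (0.33 ± 0.04, adjusted p = 2.09e-06 in limma), a size near that of SEC13. Where these differences come from was not tested.

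Among the 40 genes, higher calls in the RNA labelled as deletion outnumbered lower ones. Of the 40 genes 33 could be tested, and 18 rose, 6 fell and 9 did not pass (limma adjusted p threshold 0.05). Over all tested genes 36.4% rose and 36.7% fell, together 73.1%. The 33 genes were thus called about as often as any gene (72.7%), with 54.5% higher and 18.2% lower. Their median log2 ratio was 0.10, against -0.00 over all genes, and their SD was 0.20, against 0.28 over all genes. Because the arrays read RNA from whole cultures, fewer cells that use a gene and less of its RNA per cell cannot be told apart.

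The sizes were modest. Among the 33 genes 7 (21.2%) had log2 ratios of 0.25 or more in either direction, against 34.1% of all tested genes. BET5 alone reached 0.5 or more, against 8.01% of all genes. When a call instead required the scanner software's own p-value to be under 0.01 in every kept spot on both arrays, BET5 alone remained and none of the 33 rose, while 5.07% of all genes passed.

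The 7 genes that could not be tested were left out because the scanner software flagged their spots as non-uniform on 1 array, 3 of them on array 1 and 4 on array 2. They are SEC24, SFB2, SEC26, RET3, AGE2, SEC17 and SED5. With flagged spots kept, all 40 genes were tested, and 22 rose and 9 fell. In that fit 36.4% of 6146 genes rose and 37.6% fell. AGE2, SEC26 and BET5, 3 of 40 genes, then reached 0.5 or more in either direction, against 8.8% of all genes. Values of these 7 genes are given below from the fit with flagged spots, with the unflagged array named.

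**Figure D1:**
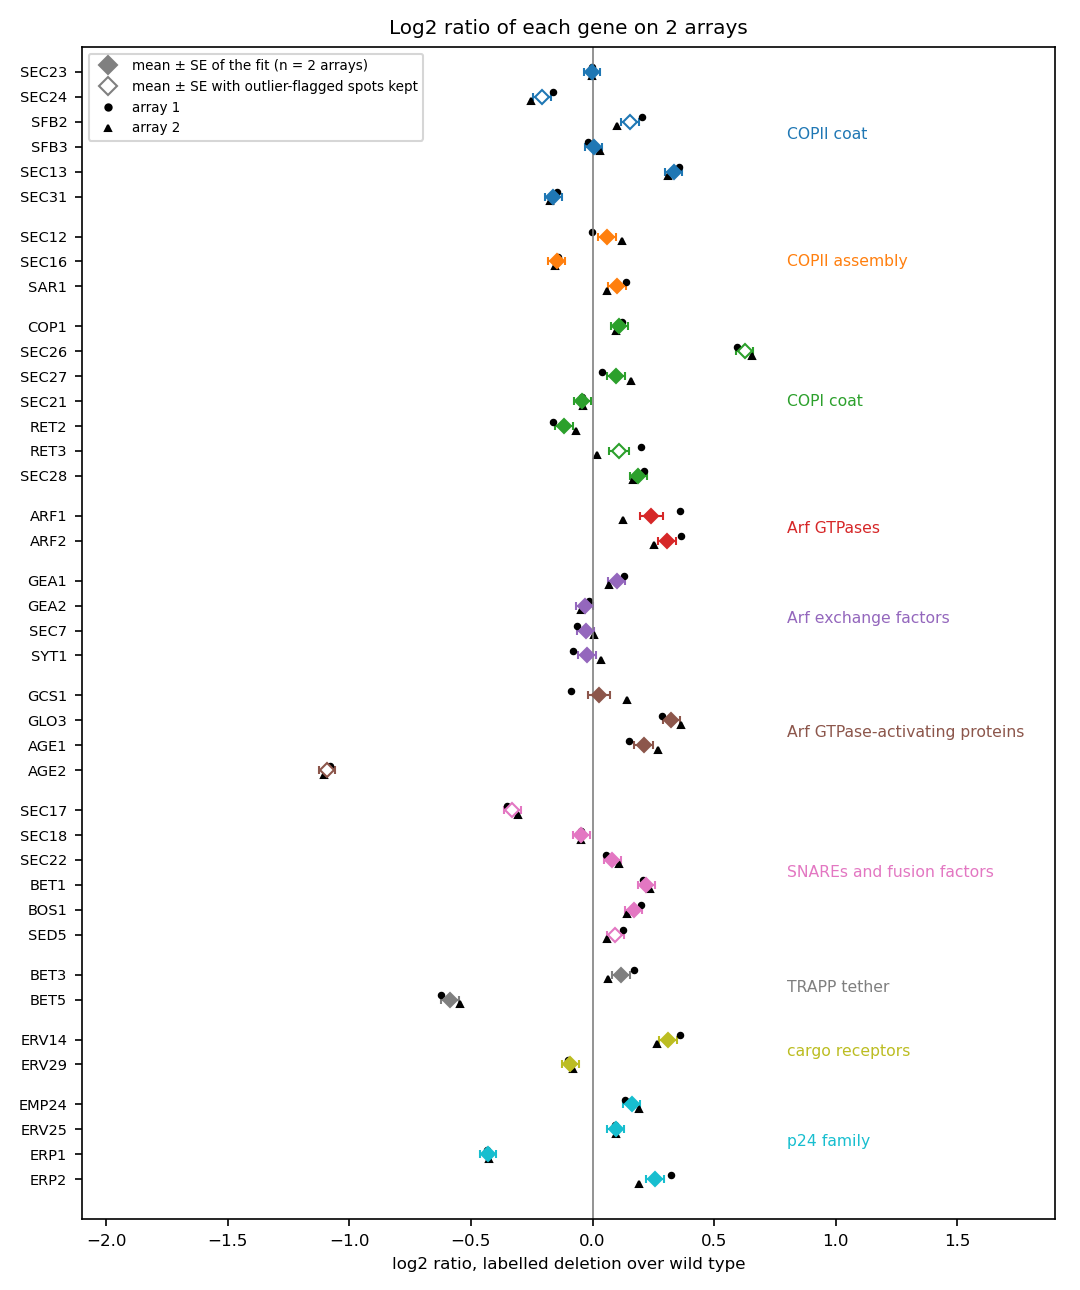
Log2 ratio (labelled deletion over wild type) of the 40 genes, grouped by role. Diamonds show the mean and SE of the limma fit over 2 arrays, circles array 1 and triangles array 2, and open diamonds show genes measured only with outlier-flagged spots kept. AGE2 stands far to the left at -1.09, BET5 and ERP1 lie at -0.59 and -0.43, and SEC26 lies farthest to the right at 0.63.

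Among the Arf GTPase-activating proteins, which end the active state of Arf, AGE2 had the lowest ratio of all 40 genes, while GLO3 and AGE1 rose. AGE2, which acts in traffic out of the trans-Golgi, had normalised intensities of 6680.2 and 7916 in the RNA labelled as deletion, against 14125 and 17029.8 in the wild type. The deletion reading was the lower one on each array. Its 4 spot readings were close to each other, at log2 ratios of -1.05 and -1.11 on array 1 and -1.13 and -1.08 on array 2. Both spots of array 1 were flagged as non-uniform and neither spot of array 2 was. Without the flagged spots the single value is -1.11, from array 2 alone and with no test. With them the log2 ratio was -1.09 ± 0.03 (SE, n = 2, limma adjusted p = 5.79e-11), a level 2.13-fold lower, and 4 of the 6146 genes tested, AGE2 included, had a ratio as low or lower.

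GLO3, an Arf GTPase-activating protein of the COPI pathway, gave intensities of 3066 and 4188 in the RNA labelled as deletion, against 2515 and 3255 in the wild type. It rose by 0.32 ± 0.04 (SE, n = 2, limma adjusted p = 1.26e-06), with 0.29 and 0.36 on the arrays. AGE1 gave 1196 and 1865 in the RNA labelled as deletion, against 1078 and 1546 in the wild type, and rose by 0.21 ± 0.04 (adjusted p = 0.000158). In both genes the deletion reading was the higher one on each array, although the ranges of the groups overlap, since array 2 was brighter. GCS1, which works with GLO3 in retrieval to the ER, had opposite signs on the arrays (-0.09 and 0.14). It did not pass (log2 ratio 0.03, 95% interval -0.07 to 0.12). On both arrays AGE1 and AGE2, which share a name and an enzymatic activity, thus lay on opposite sides of 0, and their log2 ratios differed by 1.23 and 1.38.

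**Figure D2:**
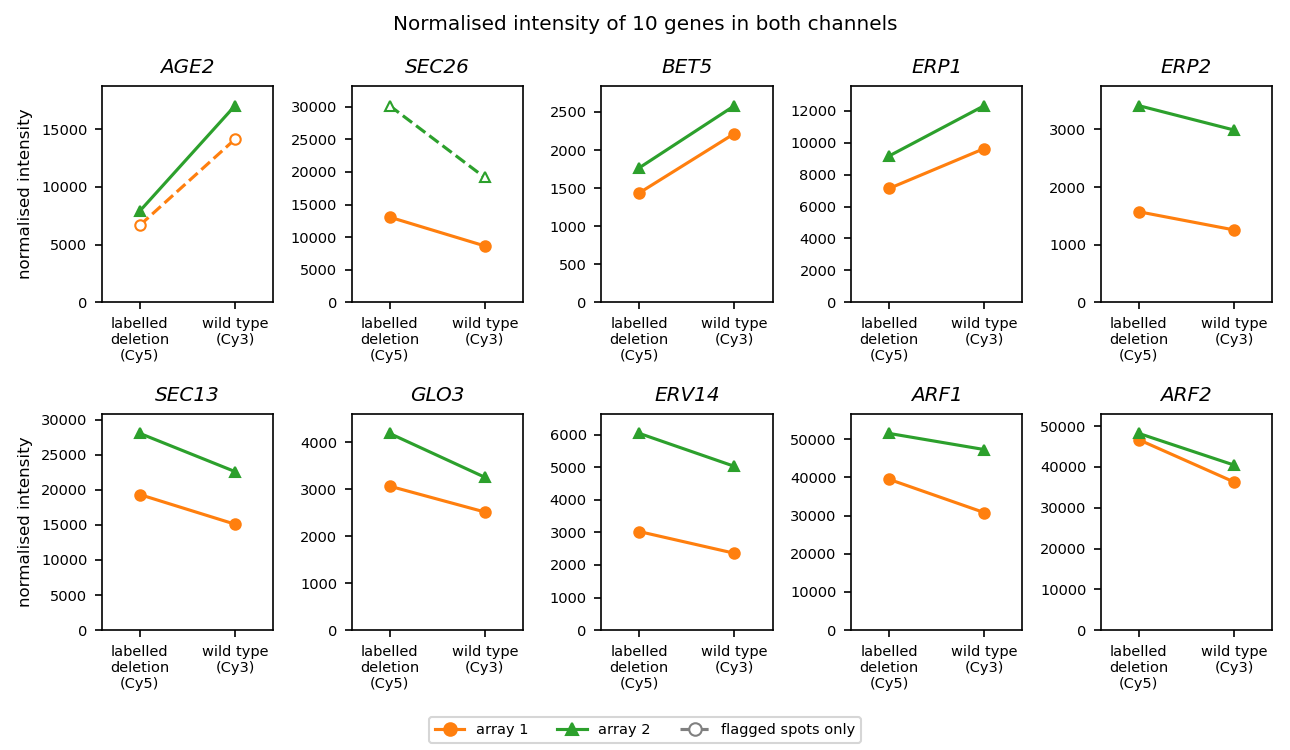
Normalised intensity (vertical axes, from 0) of 10 genes in the RNA labelled as deletion (Cy5, left) and the wild type (Cy3, right). Each line joins the channels of 1 array, and dashed lines with open symbols show arrays on which a gene had only flagged spots. The lines of AGE2, BET5 and ERP1 run upward to the wild type on both arrays, and those of the other 7 genes run downward.

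Of the Arf GTPases both rose, but at intensities where the scanner reached its limit. ARF1 and ARF2 encode near-identical GTPases that recruit COPI and other coats, and ARF1 is the more abundant protein of the pair. ARF1 gave 39512 and 51539 in the RNA labelled as deletion, against 30798 and 47313 in the wild type. Its log2 ratio was 0.24 ± 0.05 (SE, n = 2, limma adjusted p = 0.000281), with 0.36 on array 1 and 0.12 on array 2. The red channel of ARF1 was saturated in both spots of array 2, where its ratios were 0.12 and -0.02, and in neither spot of array 1, where they were 0.60 and 0.36. The spots at 0.60 and -0.02 were flagged as outliers, so the fit rests on 1 spot per array. With flagged spots kept ARF1 had 0.48 and 0.05 on the arrays and rose by 0.27 ± 0.07 (adjusted p = 0.00306). ARF2 gave 46666 and 48209 in the RNA labelled as deletion, against 36319 and 40459 in the wild type. In the spots that counted its deletion reading was the higher one on each array. Its log2 ratio was 0.31 ± 0.04 (adjusted p = 3.25e-06). ARF2 also had 1 flagged spot on each array, and with flagged spots kept it rose by 0.37 ± 0.04 (adjusted p = 7.8e-07). The spot of ARF2 that counted on array 2 was saturated in red. With saturated spots left out neither gene could be tested, and with the scanner software's ratio ARF1 missed the threshold (0.17, adjusted p = 0.0768). Whether the probes tell these 2 sequences apart was not tested.

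The Arf exchange factors, large proteins with a Sec7 domain that load Arf with GTP, showed little difference. Of 4 tested genes 1 rose. GEA1, which acts at the early Golgi, gave 724 and 1127 in the RNA labelled as deletion, against 662 and 1075 in the wild type, and rose by 0.10 ± 0.04 (SE, n = 2, limma adjusted p = 0.0203). After median centring it no longer passed (0.04, adjusted p = 0.308). Its paralogue GEA2 did not pass (-0.03, 95% interval -0.11 to 0.04). Nor did SEC7, the exchange factor of the late Golgi (-0.03, interval -0.10 to 0.05), or SYT1 (-0.02, interval -0.10 to 0.06).

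In the COPI coat, a 7-subunit complex, SEC26 had the highest log2 ratio after loess. After median centring SEC26 was again the highest (0.85, with its flagged spot kept). In that setting SEC28 (0.42), SEC27 (0.36), COP1 (0.30) and, with its flagged spot, RET3 (0.30) also lay well above the loess values given here. SEC26, the beta subunit, gave 13068 and 30155 in the RNA labelled as deletion, against 8652 and 19143 in the wild type, so the deletion reading was the higher one on each array. Its log2 ratio was 0.59 on array 1 and 0.66 on array 2, where its only spot was flagged. With that spot kept it rose by 0.63 ± 0.04 (SE, n = 2, limma adjusted p = 4.68e-09), which is 1.54-fold. Without it the value is 0.59 from array 1 alone, with no test.

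Among the 5 COPI subunits that could be tested without flagged spots, 3 rose, 1 fell and 1 did not pass. SEC28, the epsilon subunit, gave 12554 and 22007 in the RNA labelled as deletion, against 10833 and 19635 in the wild type, and rose by 0.19 ± 0.04 (adjusted p = 0.000203). COP1, the alpha subunit, rose by 0.11 ± 0.03 and SEC27, the beta prime subunit, by 0.10 ± 0.04, with adjusted p = 0.0102 and 0.0319. SEC27 lost its call with the scanner software's ratio (0.07) and with the series table (0.08), and its arrays differed, with 0.04 and 0.16. RET2, the delta subunit, had -0.16 on array 1 and -0.07 on array 2. It fell by 0.12 on the log2 scale (SE 0.04, adjusted p = 0.0105), but with median centring it was higher by 0.13 (adjusted p = 0.0101), so its direction depends on the normalisation. SEC21, the gamma subunit, did not pass (-0.04, 95% interval -0.12 to 0.03). RET3, the zeta subunit, had 0.20 on array 1 and 0.02 on array 2, where its spot was flagged. With that spot it was higher by 0.11 ± 0.04 (adjusted p = 0.0333), a call that was lost under 3 of 5 further settings.

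The COPII coat showed opposite ratios within its outer cage. SEC13 and SEC31 encode the subunits that assemble into the cage, and Sec13 is also part of the nuclear pore. SEC13 gave 19318 and 28039 in the RNA labelled as deletion, against 15097 and 22599 in the wild type. It rose by 0.33 ± 0.03 (SE, n = 2, limma adjusted p = 6.91e-07), or 1.26-fold, and its 4 spot readings ranged from 0.30 to 0.39. SEC31 gave 3023 and 4196 in the RNA labelled as deletion, against 3345 and 4741 in the wild type, and fell by 0.16 on the log2 scale (SE 0.03, adjusted p = 0.000705). Their log2 ratios differed by 0.50 on array 1 and 0.49 on array 2.

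The inner COPII layer holds Sec23, which stimulates GTP hydrolysis by Sar1, and Sec24, which binds cargo. SEC23 was among the genes closest to no difference, with 2258 and 2657 in the RNA labelled as deletion, against 2262 and 2659.7 in the wild type (log2 ratio -0.00, 95% interval -0.08 to 0.07). SEC24 gave log2 ratios of -0.16 on array 1, where its spot was flagged, and -0.25 on array 2. With the flagged spot it fell by 0.21 (SE 0.04, adjusted p = 0.000153). SFB2, a homologue of SEC24, gave 0.20 on array 1 and 0.10 on array 2, where its spot was flagged, and with that spot it rose by 0.15 ± 0.04 (adjusted p = 0.00212). SFB3, the other homologue, did not pass (0.01, interval -0.07 to 0.08). SEC24 lay below SFB2 by 0.37 and 0.35 on the arrays.

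Of the genes that start COPII assembly, 1 rose, 1 fell and 1 did not pass. SAR1 gave 43479.6 and 51749 in the RNA labelled as deletion, against 39478 and 49645 in the wild type, and rose by 0.10 ± 0.04 (SE, n = 2, limma adjusted p = 0.0219), with 0.14 and 0.06 on the arrays. Of its 4 spot readings 3 were saturated in red, and with the scanner software's ratio the value was 0.02 (adjusted p = 0.667). SEC16, the scaffold of ER exit sites, fell by 0.15 (SE 0.03, adjusted p = 0.00134), but after median centring it had 0.031 and did not pass (adjusted p = 0.433). SEC12, the exchange factor for Sar1, did not pass (0.06, 95% interval -0.02 to 0.14). Its duplicate spots on array 1 had log2 ratios of -0.15 and 0.15, the widest gap of any unflagged pair among the 40 genes.

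Of the 4 SNAREs and fusion factors tested without flagged spots, 3 rose and 1 did not pass. SNAREs on vesicle and target pair to fuse the membranes, and Sec17 and Sec18 take the pairs apart again. BET1 gave 420 and 657 in the RNA labelled as deletion, against 364 and 558 in the wild type, and rose by 0.22 ± 0.03 (SE, n = 2, limma adjusted p = 4.22e-05). BOS1 gave 1905 and 1874 in the RNA labelled as deletion, against 1661 and 1700.2 in the wild type. Its deletion reading was the higher one on each array, and it rose by 0.17 ± 0.04 (adjusted p = 0.000553). SEC22 had 0.05 and 0.11 on the arrays. It passed by a narrow margin (0.08 ± 0.04, adjusted p = 0.0497) and missed the threshold under 4 other settings. SED5, the SNARE of the early Golgi membrane, had 0.13 on array 1 and 0.06 on array 2, where its spot was flagged. With that spot it was higher by 0.09 ± 0.04 (adjusted p = 0.0295), but it did not pass with the scanner software's ratio or the series table.

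SEC17, the yeast alpha-SNAP, gave 2166 and 2842 in the RNA labelled as deletion, against 2763 and 3519.7 in the wild type. Both of its spots were flagged on array 1. Its 4 spot readings ran from -0.43 to -0.27, all below 0, and with flagged spots it fell by 0.33 (SE 0.03, adjusted p = 1.36e-06). Without them the value is -0.31 from array 2 alone. SEC18, the ATPase that works with it, did not pass (-0.05, 95% interval -0.12 to 0.03).

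TRAPP, the tether that catches COPII vesicles and activates the GTPase Ypt1, was split. BET5 had the lowest ratio of the 33 genes tested without flagged spots. It gave 1438 and 1768 in the RNA labelled as deletion, against 2217 and 2583 in the wild type, the deletion reading being the lower one on each array. It fell by 0.59 on the log2 scale (SE 0.04, n = 2, limma adjusted p = 3.01e-09), a level 1.5-fold lower, and 95.7% of all tested genes had a smaller absolute ratio. BET5 and BET3 each have a single spot per array. BET3 was higher by 0.12 ± 0.04 (adjusted p = 0.0105), with 0.17 and 0.06 on the arrays. It did not pass with the scanner software's ratio (adjusted p = 0.06), and after median centring it passed by a narrow margin (0.09, adjusted p = 0.0489). Of 8 further TRAPP subunits tested 1 rose and 3 fell, between -0.22 and 0.20. With flagged spots kept 2 of 9 rose and 3 fell, and the highest log2 ratio was 0.57.

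The cargo receptors ERV14 and ERV29 moved in opposite directions, ERV29 only slightly. Erv14 packs membrane proteins into COPII vesicles, and Erv29 packs soluble secreted proteins. ERV14 gave 3024 and 6038 in the RNA labelled as deletion, against 2358 and 5026 in the wild type, and rose by 0.31 ± 0.04 (SE, n = 2, limma adjusted p = 2.32e-06). ERV29 gave 1243 and 1504 in the RNA labelled as deletion, against 1331 and 1592 in the wild type, and fell by 0.09 (SE 0.03, adjusted p = 0.0279).

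The p24 proteins Emp24, Erv25, Erp1 and Erp2 form 1 complex that helps load lipid-anchored proteins into COPII vesicles, and 3 of their RNAs rose while 1 fell. ERP1 gave 7131 and 9166 in the RNA labelled as deletion, against 9629 and 12315 in the wild type, the deletion reading being the lower one on each array. It fell by 0.43 on the log2 scale (SE 0.03, n = 2, limma adjusted p = 4.16e-08), and its 4 spot readings lay between -0.45 and -0.41. ERP2 gave 1571 and 3411 in the RNA labelled as deletion, against 1256 and 2989 in the wild type, and rose by 0.26 ± 0.04 (adjusted p = 2.85e-05). EMP24 rose by 0.16 ± 0.04 and ERV25 by 0.10 ± 0.03, with adjusted p = 0.000825 and 0.0217, and ERV25 missed the threshold with the series table (adjusted p = 0.0547). ERP1 lay below ERP2 by 0.76 on array 1 and 0.62 on array 2. With median centring ERP1 was nearer to 0 (-0.26) and still passed.

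**Figure D3:**
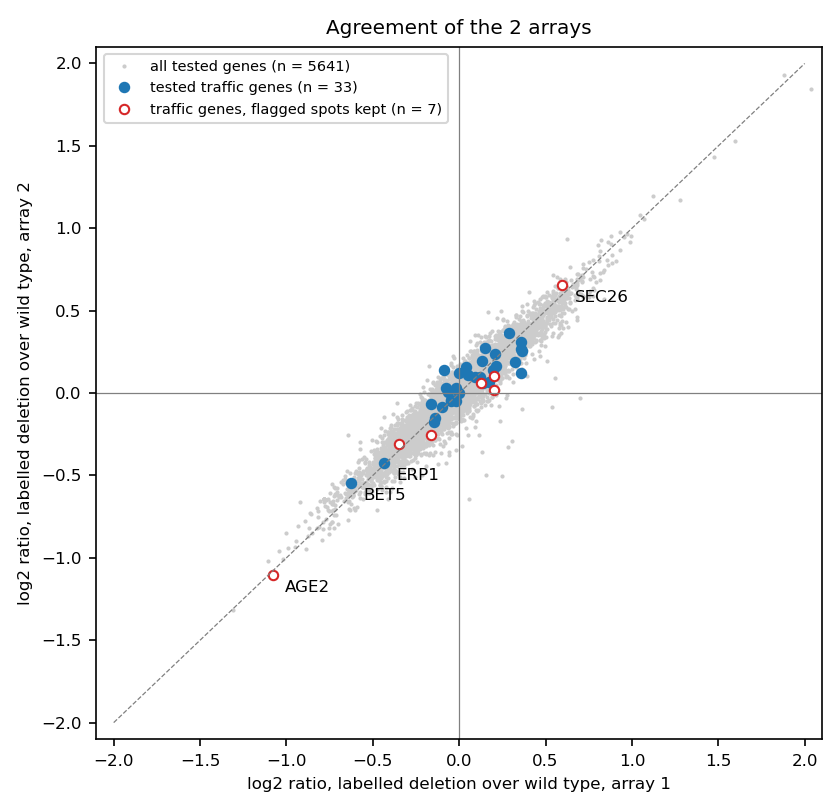
Log2 ratio (labelled deletion over wild type) on array 1 against array 2. Grey points are all 5641 tested genes, blue points the 33 traffic genes tested, and open red points the 7 traffic genes with flagged spots kept; the dashed line marks equal values. AGE2 lies close to the line near the low end of all genes, and most traffic genes lie within 0.4 of 0.

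The arrays gave the same sign for 28 of the 33 genes (84.8%), against 89.6% of all tested genes, and their median absolute difference was 0.06, against 0.05 over all genes. Duplicate spots of the 40 genes differed by a median of 0.05 in the 41 unflagged pairs of readings and by 0.12 in the 11 pairs with a flagged spot. Differences near 0.10 on the log2 scale, such as those of SAR1, SEC27, GEA1 and ERV25, were therefore no more than 2 times the usual gap between duplicate spots.

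The ratios of bright genes depended on how the channels were scaled. The main values rest on loess, which removes a trend of the ratio with intensity, and the alternative centres each array on its median. Between these settings the log2 ratios of the 33 genes shifted by between -0.06 and 0.27, and the shift followed intensity across genes (rho = 0.99 over 33 genes of the same 2 arrays). The traffic genes were brighter than most, with a median log2 intensity of 11.8, against 11.0 over all tested genes. Of the called genes 14 moved by over 1.5 times, among them SEC13 (0.59 after centring), ARF2 (0.58), ARF1 (0.51), SEC28 (0.42), SAR1 (0.37), SEC27 (0.36), COP1 (0.30), SEC22 (0.27), ERV25 (0.26) and ERV29 (-0.14). The part of this intensity trend in the excess of higher calls was not tested. BET5 (-0.62), GLO3 (0.33) and ERV14 (0.34) were close to their loess values, and AGE2, with flagged spots kept, had -0.90.

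**Figure D4:**
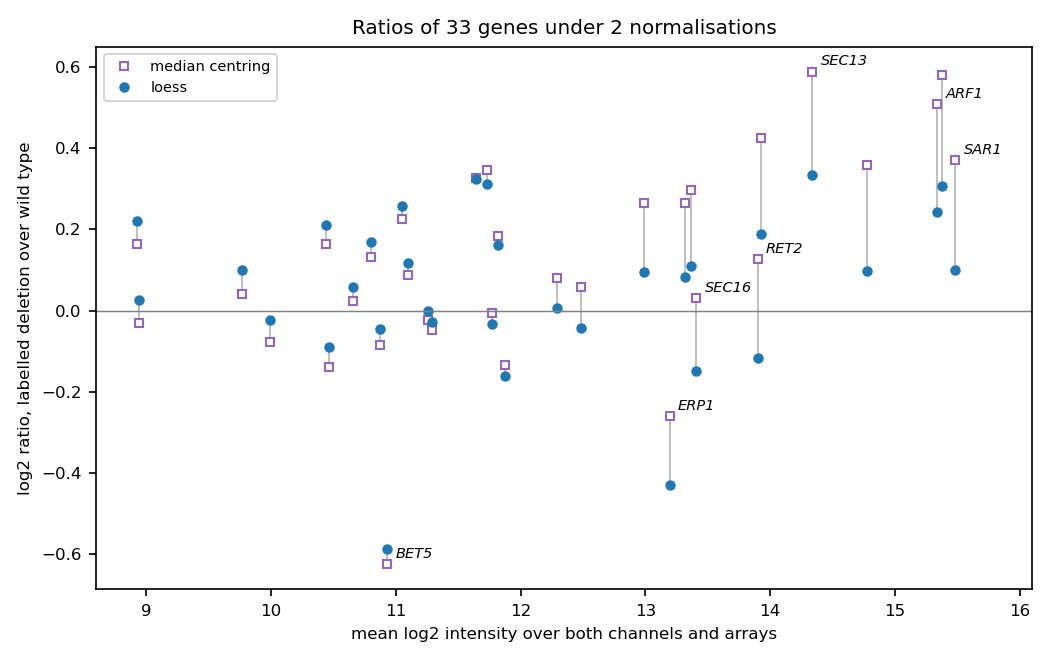
Log2 ratio (labelled deletion over wild type) of the 33 genes against mean log2 intensity, after loess (blue circles) and after median centring (open purple squares), with a grey line joining the values of a gene. Lines lengthen to the right: bright genes such as SEC13 and SAR1 move up, RET2 and SEC16 cross 0, and BET5 barely moves.

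Further genes of the pathway, from lists of related functions, were called in both directions. Over all further lists together, those under Other observations included, 33.9% of 112 tested genes rose and 41.1% fell. These shares were near those of all tested genes, 36.4% and 36.7%. Of 17 genes for COPII accessory proteins and traffic GTPases 3 rose and 8 fell, with a median log2 ratio of -0.01, and 5 rose after median centring. GYP5, a GTPase-activating protein for Ypt1, rose by 0.29 ± 0.03 (SE, n = 2, limma adjusted p = 2.4e-06). SED4, an ER protein related to Sec12, fell by 0.28 (SE 0.04, adjusted p = 6.36e-06).

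Of 14 further SNAREs and tethers 5 rose and 9 fell (median -0.16). YKT6, a SNARE of several fusion steps, rose by 0.66 ± 0.03 and DSL1, a tether of COPI vesicles at the ER, by 0.46 ± 0.04, while UFE1, the ER SNARE for returning vesicles, fell by 0.36 (SE 0.04). Of 9 subunits of the COG tether of the Golgi 3 rose and 6 fell (median -0.13, range -0.26 to 0.31). Of 11 further Arf and Arl genes 5 rose and 4 fell (median 0.01), and ARF3 fell by 0.33 (SE 0.03). With flagged spots kept 6 of 12 rose, the highest with a log2 ratio of 0.77.

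Of 11 further cargo and retrieval receptors 3 rose and 3 fell (median -0.00). After median centring 6 rose and 3 fell, and with flagged spots kept 5 of 13 rose and 3 fell. The lectins EMP47 and EMP46, which carry glycoproteins out of the ER, fell by 0.45 (SE 0.03) and 0.42 (SE 0.04), and ERD2, the receptor that returns ER-resident proteins, rose by 0.37 ± 0.04. Packaging chaperones are ER proteins that ready particular transporters or enzymes for export. Of 3 tested, PHO86 rose by 0.84 ± 0.04 and SHR3 by 0.10 ± 0.03, and CHS7, which serves chitin synthase, fell by 0.60 (SE 0.03). All values named in these lists passed limma's adjusted p threshold of 0.05 with 1 sign on both arrays.

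**Figure D5:**
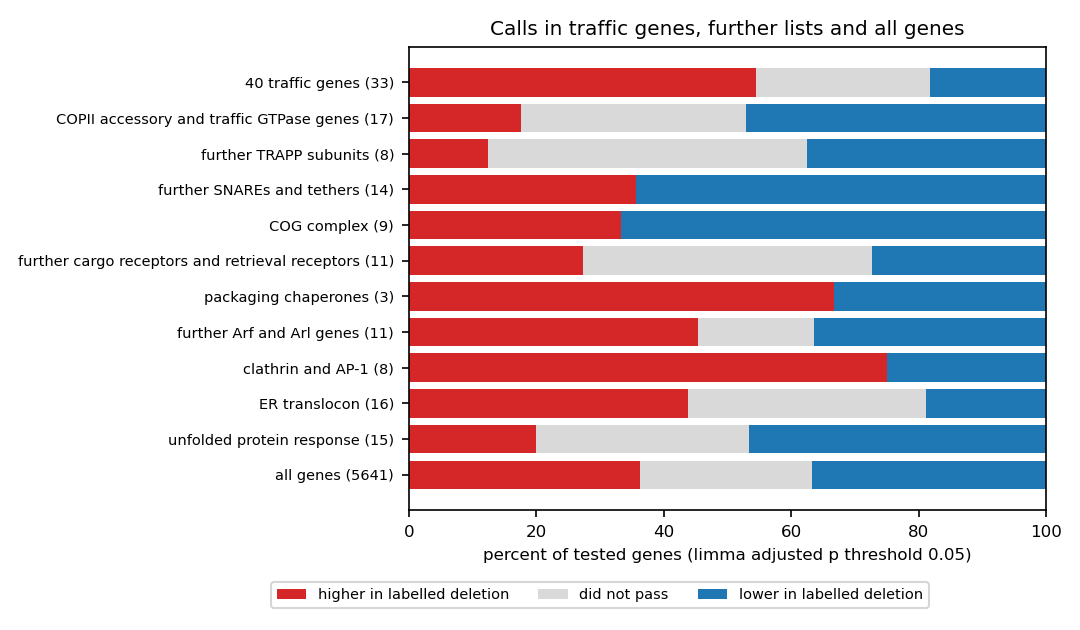
Percent of tested genes that were higher in the RNA labelled as deletion (red), did not pass (grey) or were lower (blue) at limma's adjusted p threshold of 0.05, with the number tested in brackets. The bar of the 33 traffic genes tested shows 54.5% higher and 18.2% lower, and that of all genes 36.4% and 36.7%.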

How the data were processed

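Per the file headers, spot intensities and background came from Agilent Feature Extraction 9.5.3.1, while 9.3.2.1 is the version in the submitters' processing notes. Also in the deposited files are the software's log10 ratio of red over green and its p-value. The authors' log2 ratios, deposited as a series table, ran in the direction of the scanner ratios (r = 0.994 and 0.990), with medians of -0.00491 and -0.000163 and unstated averaging. Mean signals were corrected with normexp (offset 50) and loess in limma 3.58.1 (R 4.3.3), with control spots at weight 0. Spots flagged as outliers were left out (6.47% and 8.92%), saturated spots were kept, and duplicate spots averaged. Normalised intensities include the offset. A gene was tested if either channel read well above background on each array, with limma against 0 and p adjusted by Benjamini-Hochberg over all 5641. Intervals are 95% intervals of that fit. The fit was also run on simulated data with the same noise for every gene and no dye effect, so that run does not bear on dye effects. The members and lists were chosen with earlier results of these data known. All members are named, and up to 3 called genes with the largest ratio per further list, of which 1 is not reported here. RefSeq assembly R64 held all 40 members' names. Promoters and probe sequences were not analysed here.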

Additional observations from a re-analysis of the deposited data

How the results depend on the processing

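Over the 40 genes, 276 values under alternative settings stayed on their side of limma's adjusted p threshold of 0.05, with called genes keeping their direction. Another 17 lost a call, and 1 gained one (SEC18 after median centring, -0.09). Of the called genes 2 changed sign, SEC16 (0.031) and RET2 (0.13), both after median centring. Genes that did not pass also changed sign, SEC21 (0.057) and GCS1 (-0.032) after median centring and SFB3 (-0.0033) with the scanner software's ratio. Leaving out either array kept the sign of every called gene, as values with no test. Across background correction, scaling, outlier, saturation and filter settings, between 13 and 22 genes rose, between 5 and 9 fell, and between 3874 and 4546 of all genes were called. With the scanner software's p-value under 0.01 in every kept spot, a rule added after seeing the data, 286 of all tested genes passed. Among the 33 traffic genes tested without flagged spots, 0 were higher and 1 lower. AGE2 and SEC26 were outside that count. Over all their spots, flagged ones included, the scanner software's p-value was at most 2.2e-06 for AGE2 (lower). For SEC26 (higher) it was 0.0046 on array 1 and 0.002 on array 2. The fits of the 7 genes with only flagged spots on an array were also added after seeing the data. With saturated spots left out 30 of the 40 genes could be tested. Of the counts over further lists 154 stayed within 1.5 times and 6 did not, all of them counts of higher calls: 3 after median centring, 2 with flagged spots kept and 1 (packaging chaperones, 1 higher) with the scanner software's ratio. Each log2 ratio already pairs both RNAs on 1 array, and no replicate block could be added because the arrays form 1 group. Since the arrays number 2, with no dye exchange, their number limits the precision, and a fixed dye effect of a gene counts as a difference.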

Other observations

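Neighbouring steps of secretion, outside the traffic genes described above, were also read. The counts below stand against 36.4% of all tested genes that rose and 36.7% that fell. Of 16 tested genes of the ER translocon and signal recognition particle, which bring new proteins into the ER, 7 rose and 3 fell (median log2 ratio 0.10). SRP14, a subunit of the particle, rose by 0.69 ± 0.04 (SE, n = 2, limma), and SRP72, another subunit, by 0.37 ± 0.03. Of 8 clathrin and AP-1 genes, which coat vesicles of the late Golgi, 6 rose and 2 fell (median 0.13). The clathrin heavy chain CHC1 rose by 0.48 ± 0.04 and the adaptor subunit APL4 by 0.44 ± 0.04, while APL2, the other large AP-1 subunit, fell by 0.48 (SE 0.03).

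Of 15 tested genes tied to the unfolded protein response, by which the ER raises its folding capacity, 3 rose and 7 fell (median -0.06), but after median centring 6 rose and 5 fell. LHS1, an ER chaperone, fell by 0.73 (SE 0.04) and EUG1, a protein disulphide isomerase relative, by 0.32 (SE 0.03), while FPR2, a prolyl isomerase, rose by 0.56 ± 0.03. All these values are RNA labelled as deletion over wild type and passed limma's adjusted p threshold of 0.05 with 1 sign on both arrays.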
